A study of Mus musculus with 12 samples.

Results

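Intraflagellar transport (IFT) is the traffic that builds and maintains cilia. The genes described here are the 33 genes of its trains, motors and close partners, chosen by symbol and role out of 53707 genes in the deposited gene table. No measured value entered the rule, but the group was picked with earlier results of these data known. They comprise 6 genes of the IFT-A complex, 11 of the IFT-B1 core, 6 of the IFT-B2 periphery, 4 of kinesin-2, 4 of dynein-2, and the partners Tulp3 and Mak. All 33 identifiers were in the table and all passed the filter on low counts.

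RNA was measured in retinas taken from wild-type C57BL/6J mice at postnatal day 28 and kept as explants for 48 h in Neurobasal-A medium with either 5 mM or 25 mM glucose. The retinal pigment epithelium had been taken off with the sclera, so the explants hold neurons, glia and the vessels of the retina itself. Each concentration had 3 biological replicates with 2 technical replicates apiece, 12 libraries in all, and the first technical replicates form batch 1 and the second batch 2. The study asked how glucose supply bears on gene expression in the retina, and the comparison here is 25 mM against 5 mM. The labels do not say whether biological replicates came from different animals, so that p-values measure only the spread between these samples.

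In a photoreceptor the outer segment is a modified cilium, and all of its membrane proteins pass through a narrow connecting cilium. Trains made of IFT-B and IFT-A particles are pulled towards the tip by kinesin-2 and back to the cell body by dynein-2. Loss of IFT or of its motors is known to disturb outer segments and to lead to photoreceptor degeneration. Other retinal neurons and Mueller glia carry primary cilia too, so none of these genes belongs to photoreceptors alone.

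The libraries held 17998905 to 36692484 estimated counts each at 5 mM glucose, and 14815285 to 23129541 each at 25 mM. On the first principal component, which held 47.8% of the variance, the second library of 5 mM replicate 1 sat at 23.9 while the other libraries at 5 mM sat between -97.7 and -30.1. The second library of 25 mM replicate 3 sat at -19.2, below the other libraries at 25 mM (19.2 to 130). Calls of members that change without these libraries are given with and without them. Values below are CPM, counts scaled to a common library total, after the technical replicates of a replicate were summed, with TMM factors from edgeR. Fold changes are log2 of 25 mM over 5 mM from edgeR's quasi-likelihood test with Benjamini-Hochberg adjustment over 21061 genes, and FDR stands for that adjusted p.

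At 25 mM glucose 2 of the 33 genes were higher at an FDR under 0.05, the kinase Mak and the dynein-2 intermediate chain Wdr60, and 0 were lower. Over all genes tested 1.47% were higher and 0.513% were lower by the same rule. At an unadjusted p under 0.05, 8 members were higher and 0 lower, beside 13.2% and 15.5% of all genes, while DESeq2 at an FDR under 0.05 gave 4 higher members and 0 lower ones, beside 7.03% and 9.54% of all genes. The log2 fold change was above 0 for 27 of 33 members, against 49.3% of all genes, and the median was 0.35 beside -0.01 for all genes. All 3 replicates at 25 mM lay above all 3 at 5 mM for 8 members, and the reverse held for 0 members, where 16.0% and 15.8% of all genes did so. Under a stricter rule (FDR below 0.01 with a fold change above 2), 0 members and 0 genes in all were called by edgeR, and DESeq2 called Wdr60 and Mak as higher, beside 2.98% of all genes. In bulk tissue, fewer cells of a type and less RNA per cell cannot be told apart, and this holds for every value below.

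**Figure D1:**
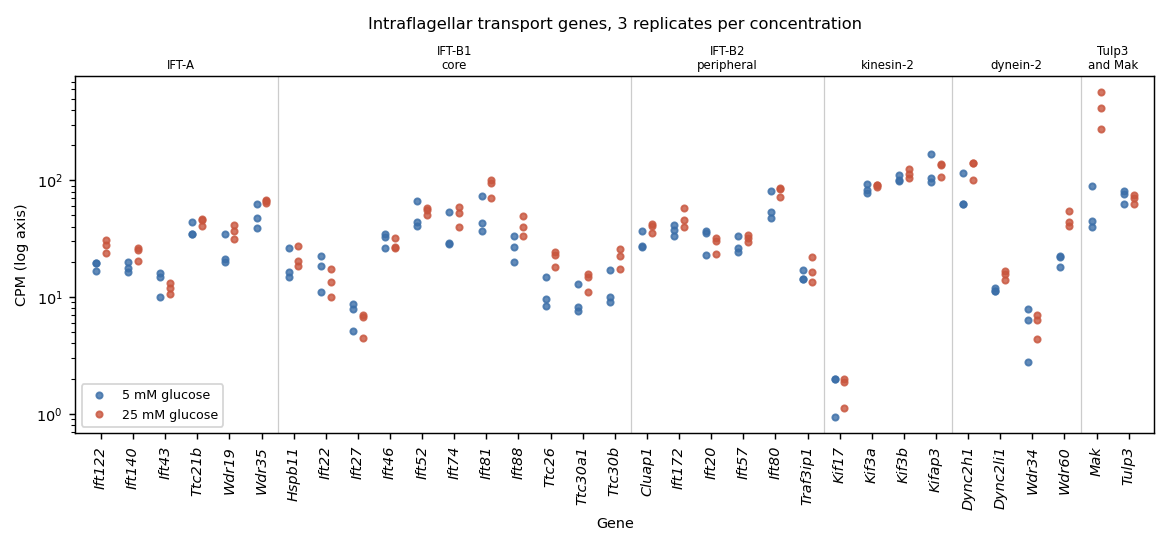
CPM of each of the 33 genes on a log axis, grouped by complex, with 1 point per replicate (blue, 5 mM; red, 25 mM glucose; 3 replicates each). Mak spans 40.1 to 88.7 CPM at 5 mM and 275 to 572 CPM at 25 mM, while the points of most other genes overlap.

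Counts summed over the 33 genes were 1426, 1095 and 1079 CPM in replicates 1 to 3 at 5 mM and 2092, 1860 and 1557 CPM at 25 mM. Without Mak and Wdr60 the sums ranged from 1017 to 1315 CPM at 5 mM and from 1241 to 1465 CPM at 25 mM, so that the groups overlapped. The replicates did not behave alike. Replicate 1 at 5 mM had the highest value of its group for 20 of 33 members (60.6%) and for 43.5% of all genes, and replicate 3 at 25 mM the lowest of its group for 22 of 33 members (66.7%) and for 35.9% of all genes. Without replicate 1 at 5 mM, edgeR called 13 members higher and 0 lower, but also 5845 genes in all, with 11.7% of genes higher.

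Mak, a serine/threonine kinase of the photoreceptor cilium that limits the length of the axoneme, gave 88.7, 45.2 and 40.1 CPM in the 3 replicates at 5 mM. At 25 mM it gave 572, 419 and 275 CPM. The groups stood far apart, with the lowest value at 25 mM above the highest at 5 mM. The mean was 7.28-fold higher at 25 mM, and the log2 fold change was 2.86 (SE 0.39, FDR = 0.0261 by edgeR). Mak (ENSMUSG00000021363) lies on chromosome 13 from 41025008 to 41079706 on the minus strand of GRCm38. Tulp3, the adaptor that joins IFT-A to membrane receptors bound for the cilium, gave 62.4, 81.4 and 77.0 CPM at 5 mM and 70.5, 62.2 and 74.5 CPM at 25 mM. The 2 groups overlapped, and the log2 fold change was -0.09 (SE 0.17, FDR = 0.74 by edgeR).

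Dynein-2 is the motor of the return journey. Wdr60, 1 of its intermediate chains, gave 22.0, 18.04 and 22.3 CPM at 5 mM and 54.6, 44.3 and 40.8 CPM at 25 mM. All replicates at 25 mM were above all at 5 mM, with a 2.24-fold higher mean and a log2 fold change of 1.16 (SE 0.19, FDR = 0.0359 by edgeR). Wdr60 (ENSMUSG00000042050) lies on chromosome 12 from 116206262 to 116263022 on the minus strand. The calls of Mak and Wdr60 depended on the replicates kept. Without 5 mM replicate 2 or 3, or without 25 mM replicate 1 or 2, edgeR called 0 genes in all, with FDRs of 0.106 to 0.159 for Mak and 0.121 to 0.159 for Wdr60 and 3 or 4 members higher at an unadjusted p under 0.05. Leaving out 25 mM replicate 3 kept both calls.

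Dync2h1, the motor heavy chain, gave 115, 63.2 and 63.0 CPM at 5 mM and 140, 141 and 101 CPM at 25 mM. Replicate 1 at 5 mM was inside the range of the 25 mM group, and the log2 fold change of 0.66 (SE 0.27) did not pass (FDR = 0.157 by edgeR). Dync2li1, the light intermediate chain, had groups that did not overlap (11.2 to 11.8 CPM against 14.0 to 16.7 CPM) and a log2 fold change of 0.44 (FDR = 0.185 by edgeR). Wdr34, the other intermediate chain, stayed below 8 CPM in every replicate, with a log2 fold change of 0.05 and an SE of 0.40. So the 4 dynein-2 genes ranged from 0.05 to 1.16 in log2 fold change, with a median of 0.55 and 1 called gene.

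Kinesin-2, the motor that pulls trains to the tip, had 0 called genes, 0 genes at an unadjusted p under 0.05 and a median log2 fold change of 0.07 by edgeR, and DESeq2 called 0 as well. Kif3b, a motor subunit of the heterotrimer, gave 111, 97.9 and 100.2 CPM at 5 mM and 125, 105 and 113 CPM at 25 mM, a log2 fold change of 0.15 (SE 0.15). Kif3a, its motor partner, gave 93.4, 77.9 and 81.7 CPM at 5 mM and 88.4, 91.2 and 90.4 CPM at 25 mM, a log2 fold change of 0.09 (SE 0.15). In both genes the groups overlapped. Kifap3, the accessory subunit, spread from 96.3 to 169 CPM at 5 mM and had a log2 fold change of 0.05 (SE 0.24). Kif17, which forms a homodimeric motor of its own, was the least abundant member at 0.94 to 2.00 CPM, with a log2 fold change of 0.02 (SE 0.39). Its annotated exons share 74 bases with Sh2d5 on the same strand, so that part of its count is uncertain.

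**Figure D2:**
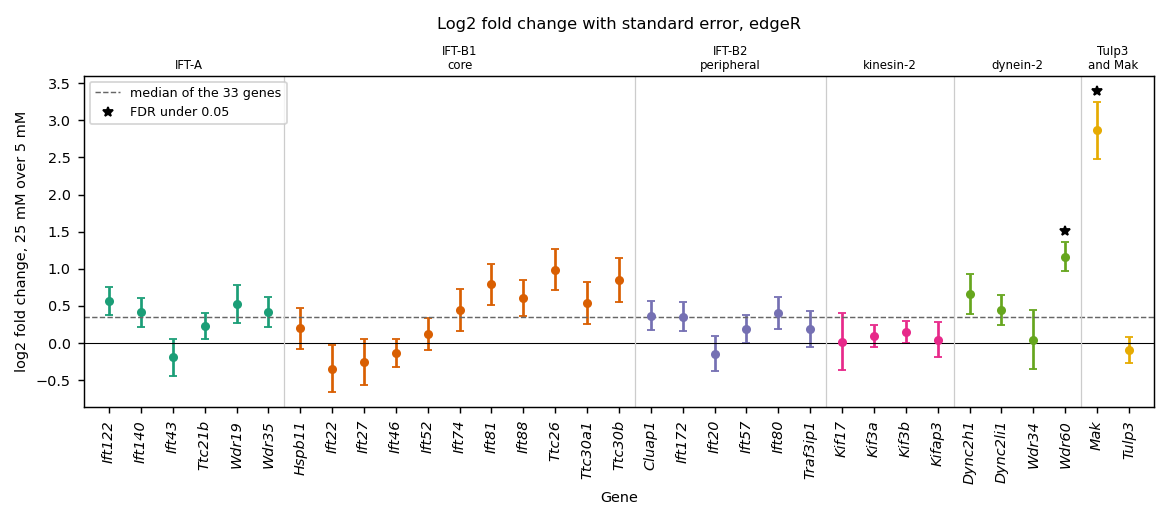
Log2 fold change (25 mM over 5 mM glucose) of each gene with its standard error as bars, coloured by complex, from 3 replicates per concentration. Stars mark Mak (2.86) and Wdr60 (1.16), and the dashed line marks the median of the 33 genes (0.35).

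IFT-A, the particle needed for return traffic and for the entry of membrane receptors, had 5 of 6 genes above 0 and a median log2 fold change of 0.42. By edgeR 0 of them were called and 1, Ift122, had an unadjusted p under 0.05, while DESeq2 called Ift122. Ift122, a core subunit, gave 16.8, 19.6 and 19.6 CPM at 5 mM and 31.1, 27.8 and 23.9 CPM at 25 mM. The groups did not overlap, and the log2 fold change was 0.57 (SE 0.19, FDR = 0.109 by edgeR). Wdr35 (IFT121), a WD-repeat subunit, gave 62.5, 47.6 and 38.9 CPM at 5 mM and 68.0, 67.0 and 64.4 CPM at 25 mM. Here too the groups did not overlap, with a log2 fold change of 0.42 (FDR = 0.204 by edgeR). Ift140, another core subunit, also had groups that did not overlap, at 16.3 to 19.9 CPM and 20.2 to 26.4 CPM, and a log2 fold change of 0.41. The core subunit Wdr19 and the peripheral subunit Ttc21b overlapped between groups, with log2 fold changes of 0.53 and 0.23. Ift43, the smallest IFT-A subunit, went the other way in value (10.1, 16.0 and 14.8 CPM at 5 mM against 11.99, 10.6 and 13.2 CPM at 25 mM), with a log2 fold change of -0.19 (SE 0.25).

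The IFT-B1 core, on which the trains are assembled, had 8 of 11 genes above 0 and a median log2 fold change of 0.44. By edgeR 0 were called and 4 were higher at an unadjusted p under 0.05, while DESeq2 called Ttc26. Ttc26 (IFT56), a repeat protein of the core, gave 14.7, 8.3 and 9.6 CPM at 5 mM and 24.1, 22.7 and 18.04 CPM at 25 mM. The groups did not overlap, and the log2 fold change was 0.99 (SE 0.27, FDR = 0.075 by edgeR). Ttc30b, one of the mouse copies of IFT70, gave 17.1, 10.1 and 9.1 CPM at 5 mM and 25.8, 22.4 and 17.3 CPM at 25 mM. The groups only just separated, and the log2 fold change was 0.85 (SE 0.30, FDR = 0.114 by edgeR). Without both libraries that stood apart, Ttc26 and Ttc30b passed, at FDRs of 0.0402 and 0.0284 by edgeR, when 8.26% of all genes were called higher. Its neighbour Ttc30a1 gave 12.9, 7.6 and 8.3 CPM at 5 mM and 15.7, 14.97 and 11.03 CPM at 25 mM, with overlapping groups and a log2 fold change of 0.54 (SE 0.28). Of the windows of 101 bases, the read length, in Ttc30a1, 7.48% were found letter for letter in Ttc30b and 19.2% in the third copy Ttc30a2, so the division of counts among the copies is uncertain. Ttc30a2 itself gave under 1 CPM in every replicate.

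Ift81, which with Ift74 forms the part of the train that binds tubulin, gave 72.9, 42.7 and 37.1 CPM at 5 mM and 100.2, 94.4 and 69.9 CPM at 25 mM. Replicate 1 at 5 mM was above replicate 3 at 25 mM, and the log2 fold change was 0.79 (SE 0.28, FDR = 0.115 by edgeR). Without the second library of 5 mM replicate 1 it was 0.94 and passed, at an FDR of 0.0476 by edgeR, when 4.23% of all genes were called higher. Ift74 had a log2 fold change of 0.44 (SE 0.28). Ift88, a scaffold subunit whose loss is known to stop cilium formation in the mouse, ranged from 20.1 to 33.5 CPM at 5 mM and from 33.2 to 49.7 CPM at 25 mM, with a log2 fold change of 0.61 (FDR = 0.151 by edgeR). Its exons share 67 bases with the antisense gene Ift88os, and whether counting used strand is not given in the sources used here.

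The remaining core subunits lay near or below 0. Ift52, a central scaffold, had a log2 fold change of 0.12, and Hspb11 (IFT25) one of 0.20. Ift22, a small GTPase-like subunit, gave 11.1, 22.4 and 18.4 CPM at 5 mM and 13.5, 10.1 and 17.3 CPM at 25 mM, a log2 fold change of -0.34 (SE 0.32). Ift27, the small GTPase that pairs with Hspb11, gave 5.1, 7.9 and 8.7 CPM against 6.8, 4.5 and 7.0 CPM, a log2 fold change of -0.25 (SE 0.31). Neither gene separated the groups. Ift46 gave 26.1, 32.65 and 34.8 CPM against 32.3, 26.7 and 26.2 CPM, a log2 fold change of -0.13 (SE 0.19). Its gene values were 1.48 to 1.99 times the sum of its transcript values, the widest gap among the members.

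The IFT-B2 periphery, which carries the contact with kinesin-2, had 5 of 6 genes above 0, a median log2 fold change of 0.27, and 0 genes called or at an unadjusted p under 0.05 by edgeR, and DESeq2 called 0 as well. Cluap1 (IFT38) gave 37.1, 27.0 and 27.3 CPM at 5 mM and 35.7, 42.0 and 40.6 CPM at 25 mM, a log2 fold change of 0.37 (SE 0.19). Ift80 gave 80.6, 53.8 and 47.7 CPM at 5 mM and 83.6, 85.2 and 72.5 CPM at 25 mM, a log2 fold change of 0.41 (SE 0.22). In both genes only replicate 1 at 5 mM reached into the range of the 25 mM group. Cluap1 shares 510 exon bases with Gm20695 on its own strand, and its count is uncertain to that extent. Ift172, the largest subunit of this group, had a log2 fold change of 0.35, and Traf3ip1 (IFT54) and Ift57 had 0.19 each. Ift57 shares 225 exon bases with the antisense gene Gm15518. Ift20, the subunit that also sits at the Golgi and sorts membrane cargo, gave 22.9, 36.8 and 35.1 CPM at 5 mM and 30.1, 23.4 and 32.1 CPM at 25 mM, a log2 fold change of -0.15 (SE 0.24).

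Levels per transcript length were compared as TPM, the transcript count divided by transcript length and scaled to the same total in each replicate, within 1 concentration at a time. At 5 mM the most abundant members on this scale were Ift20 at 62.0 ± 16.9, Kifap3 at 57.9 ± 16.5, Hspb11 at 57.4 ± 16.7, Tulp3 at 57.3 ± 10.6 and Kif3a at 56.6 ± 3.3 (mean ± SD, n = 3). These neighbours did not differ beyond their spread. Mak stood in the middle of the list at 27.8 ± 10.9. At 25 mM Mak was first at 219 ± 89.6, followed by Ift81 at 80.9 ± 15.3 and Hspb11 at 71.2 ± 10.3. The least abundant members at 5 mM were Kif17 at 1.11 ± 0.45, Ttc30a1 at 4.79 ± 1.26 and Ttc26 at 4.99 ± 1.37.

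The members with longer transcripts tended to have the larger log2 fold changes. Over the 33 genes, log2 of the count-weighted transcript length and log2 fold change had a Pearson r of 0.45 and a Spearman rho of 0.50, which is a description over genes that share the same 6 samples and no test. Of the 17 genes with a weighted length of 3090 bases or more, 16 were above 0 with a median log2 fold change of 0.42. Of the 16 shorter genes, 11 were above 0 with a median of 0.11. With a correction for GC content and length the median of all members fell to 0.23, 23 of 33 were above 0, and r was 0.42. Ift122, Ttc26, Wdr60 and Mak were then called higher by edgeR, 4 of 33 members beside 5.96% of all genes. The correction used the median length of a gene's annotated transcripts, while r used the count-weighted length. In Ift172 these lengths were 727 and 4454 bases. The corrected r therefore cannot show whether the relation would remain after a correction for the weighted length.

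RFX factors are known regulators of many IFT genes, and the promoters of the members were searched for the core of their site. RefSeq promoters on GRCm38.p6, running from 250 bases before to 50 bases after the annotated start, were found for 28 of the 33 genes (29 promoters). The RFX core site GTTGCC, searched on both strands, was in the promoters of 11 of 28 genes, 37.9% of the 29 promoters, and in 12.5% of 32851 promoters of all genes. The X box, spelled as GTTNCC followed after 1 to 4 bases by GNAAC and so able to overlap the core site, was in those of Ttc26, Ift57 and Kif17, 10.3% of member promoters against 1.86% of all promoters. The GC box GGGCGG was in 62.1% of member promoters and 35.7% of all, and TAATCC, the letters bound by CRX, in 6.90% and 7.06%. The Mak promoters and that of Wdr60 held no GTTGCC in these windows, and 1 of the 2 Mak promoters held TAATCC. The promoters of the 4 members with the lowest p among those with the core site are printed here, 5′ to 3′ on the strand of the gene, with each core site or its reverse complement in capitals. They lie at chr6:38381274-38381573 (Ttc26, plus strand), chr14:57423821-57424120 (Ift88, plus), chr9:7177009-7177308 (Dync2h1, minus) and chr12:8973751-8974050 (Wdr35, plus).
Ttc26: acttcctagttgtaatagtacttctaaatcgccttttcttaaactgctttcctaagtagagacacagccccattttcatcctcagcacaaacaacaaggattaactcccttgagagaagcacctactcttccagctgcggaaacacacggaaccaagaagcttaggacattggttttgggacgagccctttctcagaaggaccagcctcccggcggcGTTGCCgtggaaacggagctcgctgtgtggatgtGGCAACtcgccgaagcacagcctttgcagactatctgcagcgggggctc
Ift88: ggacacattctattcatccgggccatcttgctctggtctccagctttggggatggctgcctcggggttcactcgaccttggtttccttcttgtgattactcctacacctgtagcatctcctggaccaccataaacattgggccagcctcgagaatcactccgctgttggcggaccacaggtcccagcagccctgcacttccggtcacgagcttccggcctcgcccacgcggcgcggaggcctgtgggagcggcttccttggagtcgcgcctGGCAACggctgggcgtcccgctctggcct
Dync2h1: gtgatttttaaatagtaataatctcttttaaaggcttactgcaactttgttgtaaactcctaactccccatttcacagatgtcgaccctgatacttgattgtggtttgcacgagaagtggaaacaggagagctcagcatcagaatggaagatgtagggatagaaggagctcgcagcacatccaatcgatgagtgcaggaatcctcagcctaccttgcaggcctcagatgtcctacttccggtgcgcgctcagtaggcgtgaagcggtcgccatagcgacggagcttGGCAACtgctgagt
Wdr35: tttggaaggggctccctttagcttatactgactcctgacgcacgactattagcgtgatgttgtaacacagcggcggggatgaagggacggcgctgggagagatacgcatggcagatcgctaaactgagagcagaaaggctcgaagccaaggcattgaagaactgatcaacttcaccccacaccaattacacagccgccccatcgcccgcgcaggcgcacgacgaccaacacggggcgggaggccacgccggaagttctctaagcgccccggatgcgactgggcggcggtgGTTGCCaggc
In Ttc26 the first of 2 core sites begins 33 bases before the annotated start, and in Ift88, Dync2h1 and Wdr35 the single site begins 21, 36 and 40 bases after it. These 4 genes had log2 fold changes of 0.99, 0.61, 0.66 and 0.42. By edgeR none of them was called as reported here, while DESeq2 and the correction for GC content and length called Ttc26.

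The transcript table divided each gene among annotated forms, some of which keep an intron and are annotated as non-coding. The libraries were made from total RNA. Whether counts of the forms with an intron came from unspliced RNA or from finished transcripts was not tested. Of 195 transcripts of the members 149 were tested, and 0 passed an FDR of 0.05 by edgeR, where 0% of 64990 transcripts passed in the higher and 0% in the lower direction. Of the 125 to which DESeq2 gave an FDR, it called 12 higher and 1 lower, beside 3.36% and 5.45% of all transcripts with an FDR. At an unadjusted p under 0.05 there were 29, of which 27 were higher and 2 lower, while 7.81% of all transcripts were higher and 8.60% lower. Of the 49 tested retained-intron transcripts of the members, 14 were higher and 0 lower at that p, beside 11.7% and 2.84% of all retained-intron transcripts. Their log2 fold change was above 0 in 48 of 49, against 64.8% of all such transcripts, with a median of 0.80 beside 0.25. Of the 79 coding transcripts 13 were higher and 2 lower, beside 4.78% and 13.9% of all coding transcripts. Their log2 fold change was above 0 in 48 of 79, against 36.5% of all, with a median of 0.14 beside -0.24.

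With the counts of both concentrations averaged, the retained-intron transcript Mak-207, which is 6815 bases long, held 61.9% of the counts of Mak. In CPM of the transcript table Mak-207 gave 40.0, 21.9 and 13.0 at 5 mM and 399, 264 and 175 at 25 mM, a log2 fold change of 3.31 (SE 0.55). The main coding transcript Mak-206 gave 24.7, 20.999 and 17.1 at 5 mM and 129, 69.2 and 84.0 at 25 mM, a log2 fold change of 2.01 (SE 0.29). Both forms separated the groups, each at an FDR of 0.192 by edgeR. Coding transcripts together held 46.7%, 57.9% and 65.7% of Mak counts at 5 mM and 34.7%, 32.2% and 41.3% at 25 mM.

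The share of a gene's counts in retained-intron transcripts could be followed in 24 members. It was higher in all 3 replicates at 25 mM than in all at 5 mM for 11 of the 24, against 30.0% of 8598 genes, and lower for 0, against 1.38%. Over all annotated transcripts this share was 5.80% to 5.95% at 5 mM and 6.92% to 7.74% at 25 mM, so the whole table shifted in the same direction. In Ift122 it was 6.51%, 5.48% and 7.88% at 5 mM and 12.1%, 18.5% and 13.1% at 25 mM. In Tulp3 it was 7.47%, 6.63% and 7.27% at 5 mM and 15.6%, 16.0% and 11.2% at 25 mM, although the gene as a whole had a log2 fold change near 0. In Wdr60 the groups overlapped (16.9% to 27.1% against 25.2% to 30.5%), and its coding transcript Wdr60-201 had a log2 fold change of 0.87 (SE 0.23). The 2 transcripts lower at an unadjusted p under 0.05 were coding forms, Ift20-201 at -1.07 and Ift46-201 at -1.14.

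**Figure D3:**
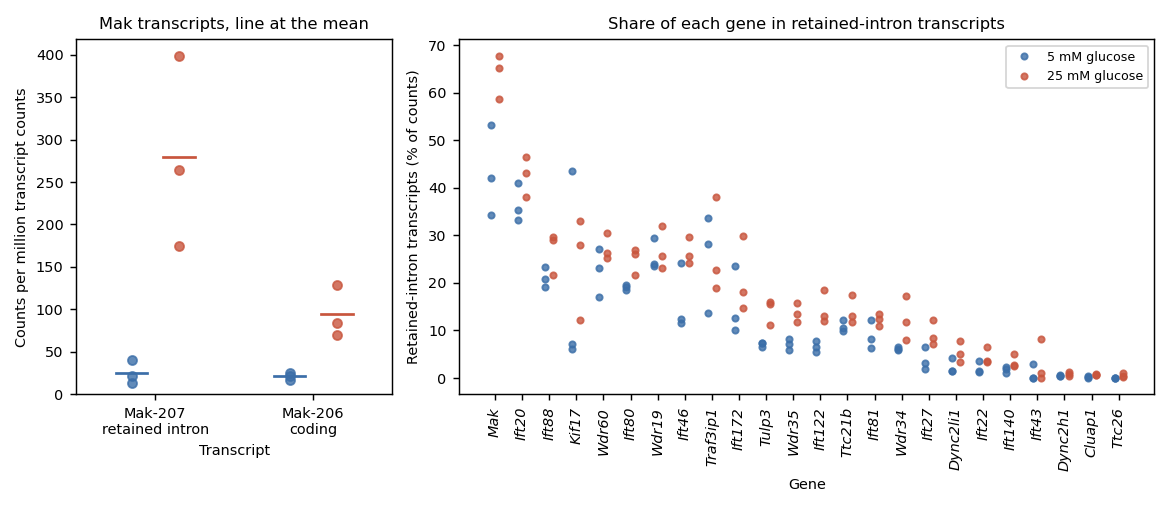
Left, CPM in the transcript table of the retained-intron transcript Mak-207 and the coding transcript Mak-206, with 1 point per replicate and a line at the mean of 3. Right, percent of each gene's counts in retained-intron transcripts for the 24 members that have such counts; Mak lies at 34.3% to 53.3% at 5 mM and at 58.7% to 67.8% at 25 mM, and Wdr60 overlaps.

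Each batch was also fitted alone. In batch 1, 29 of 33 members were above 0 with a median log2 fold change of 0.48, and edgeR called Ift81, Ift172, Wdr60 and Mak higher, 4 of 33 beside 7.16% of all genes. In batch 2, 23 of 33 were above 0 with a median of 0.25, and edgeR called 0 members and 0 genes. At an unadjusted p under 0.05, 3 members were higher there, beside 954 of 18811 genes. Mak had log2 fold changes of 3.72 and 2.30 in batches 1 and 2, and Wdr60 1.45 and 0.94. Ttc26 was alike in both, at 1.05 and 1.03. The difference between batches was tested as a term over the 12 libraries, and 0 members passed an FDR of 0.05 by edgeR, 2 had an unadjusted p under 0.05 (Kif17 and Ift172), and 28 of 33 had the smaller value in batch 2. Over all genes 0 passed, 16.3% had an unadjusted p under 0.05 and 53.7% had the smaller value in batch 2, with a median difference of -0.06 beside -0.27 for the members.

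**Figure D4:**
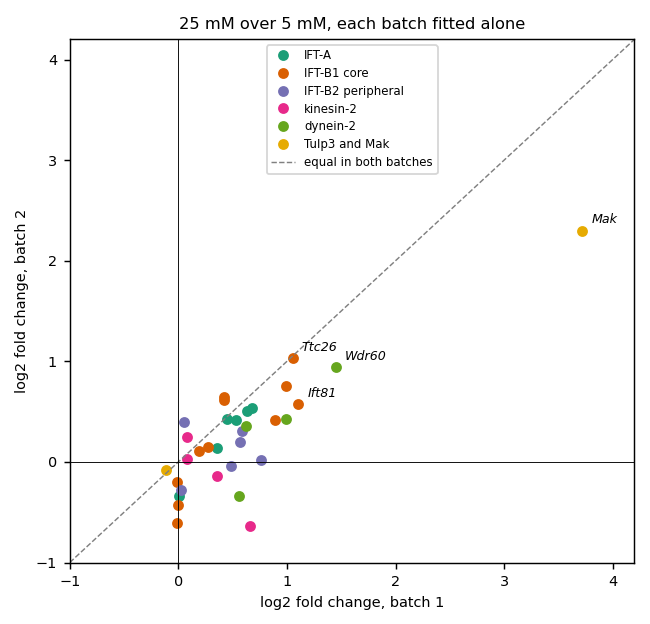
Log2 fold change of each member with batch 1 libraries alone (x axis) against batch 2 libraries alone (y axis), coloured by complex. Mak lies at 3.72 and 2.30, and most other points lie below the dashed line of equal values.

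Genes that work beside IFT were described from lists. The BBSome with its recruiter Arl6, the coat that IFT trains carry to take membrane proteins out of the cilium, had 9 of 9 genes above 0, a median log2 fold change of 1.21 and 3 genes called higher. These were Arl6 at 2.04 (SE 0.27), Bbs7 at 1.41 (SE 0.25) and Ttc8 at 1.33 (SE 0.24), with FDRs of 0.0261, 0.0423 and 0.0410 by edgeR. Of 16 tested genes of the transition zone, the gate at the base of the cilium, 14 were above 0 and 2 were called, Rpgrip1 at 2.37 (SE 0.24) and Cc2d2a at 1.29 (SE 0.20), with FDRs of 0.0217 and 0.0326 by edgeR. The gate genes had a median of 0.64. Over all genes edgeR called 1.47% higher at this FDR. At an unadjusted p under 0.05 by edgeR, 8 BBSome and 9 gate genes were higher, beside 13.2% of all genes. DESeq2 called 8 BBSome and 8 gate genes higher, beside 7.03% of all genes. Without both libraries that stood apart, edgeR called 8 and 8 of them higher, beside 8.26% of all genes. Among 5 ciliary kinases related in role to Mak, 5 were above 0 (4 with DESeq2 or its size factors) and Mok, of the same kinase family, was called at 1.27 (SE 0.25, FDR = 0.0477 by edgeR). The edgeR calls of the genes named here were all lost with batch 2 alone, and without 5 mM replicate 2 or 3 or 25 mM replicate 1 or 2. That of Mok was lost in 9 of 19 alternatives, scaling by library totals among them.

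Of 6 tested ciliary transcription factors 0 were called by edgeR or DESeq2, 3 were higher at an unadjusted p under 0.05 by edgeR, 5 were above 0 and the median was 0.46, with Rfx3 at 0.68 and Rfx1 at 0.82 having the lowest p (FDR = 0.117 and 0.124 by edgeR). Of 8 further motor and train subunits edgeR called 0, with 1 higher and 1 lower at an unadjusted p under 0.05, and the median was 0.05, with Dynlrb2 at 0.97 and Dynlrb1 at -0.40 having the lowest p. The motors of the cytoplasm, kinesin-1 and dynein-1, had 0 of 12 called by edgeR, 1 lower at an unadjusted p under 0.05, 4 above 0 and a median of -0.14. Kif5c, a neuronal kinesin-1 heavy chain, at -0.52 and the dynactin subunit Dctn2 at -0.53 had the lowest p in that list. So the lists around the 33 members ranged from a median of -0.14 for the motors outside cilia to 1.21 for the BBSome.

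**Figure D5:**
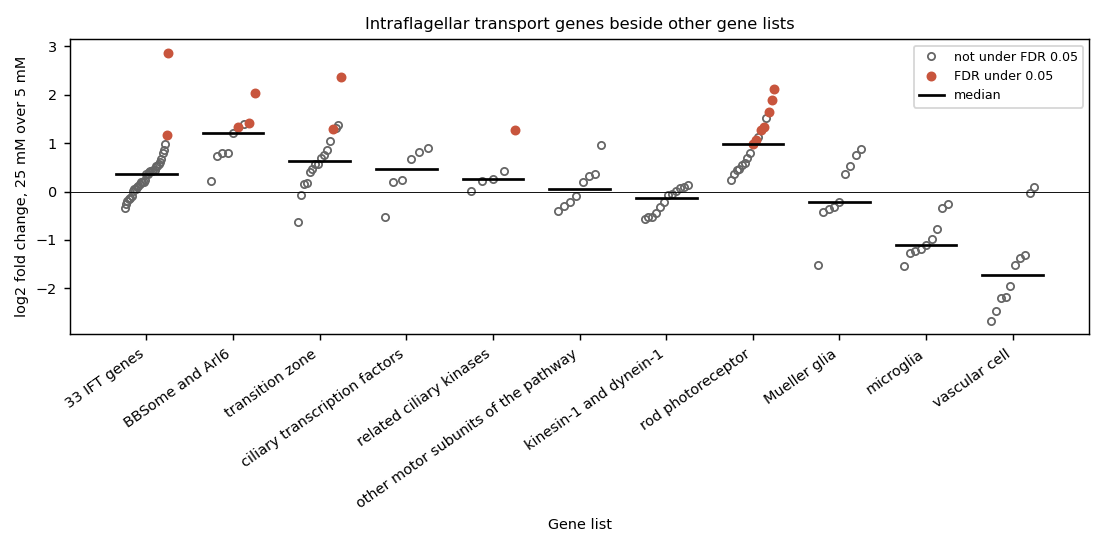
Log2 fold change of the 33 IFT genes beside genes of 6 related lists and 4 cell type marker lists, with filled points for an FDR under 0.05 and a bar at the median. The IFT median of 0.35 lies between those of the BBSome list (1.21) and of the cytoplasmic motors (-0.14).

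Among markers of cell types, edgeR as reported called rod and cone markers and no others. DESeq2 also called 3 of 9 microglial and 8 of 10 vascular markers lower. It called rod (10 higher, 0 lower), cone (4 and 1), bipolar (1 and 2) and amacrine markers (1 and 3). Ganglion cell (0 and 1), Mueller glia (0 and 1) and pigment epithelium markers (1 and 1) were called too. Over all genes DESeq2 called 7.03% higher and 9.54% lower. Without both libraries that stood apart, edgeR called 6 microglial and 8 vascular markers lower, and 10 rod and 5 cone markers higher. It then called bipolar (4 higher, 2 lower), amacrine (2 and 2), ganglion cell (2 and 1), Mueller glia (0 and 1) and pigment epithelium markers (0 and 1) too. Over all genes it called 1726 of 20893 higher and 2215 lower. All 17 rod markers were above 0 and 7 were called higher, Pde6b at 1.65, Slc24a1 at 1.90, Cnga1 at 2.12 and Nrl at 1.33 with the lowest p, and their summed level was 4181 to 7148 CPM at 5 mM and 8800 to 11717 CPM at 25 mM. Cone markers had 7 of 10 above 0 and 1 called (Opn1mw at 1.75), with sums of 102 to 109 and 147 to 185 CPM. With batch 2 alone edgeR called 0 rod and 0 cone markers. The same held without 5 mM replicate 2 or 3, and without 25 mM replicate 1 or 2. The calls of the rod markers Pde6a and Prph2 were lost in 6 and 8 of 19 alternatives. Microglial markers had 0 of 9 above 0 and 6 lower at an unadjusted p under 0.05 by edgeR, with sums of 294 to 414 CPM at 5 mM and 122 to 244 CPM at 25 mM, and vascular markers 1 of 10 and 8 lower at that p, with 1126 to 2015 and 545 to 1027 CPM. Over all genes 15.5% were lower at that p. Mueller glia markers had 4 of 9 above 0, with 3231 to 4301 and 2125 to 3018 CPM. Amacrine markers had 4 of 9 above 0, with 462 to 564 and 296 to 443 CPM, while bipolar and ganglion cell markers had medians of 0.28 and 0.15 with overlapping sums. Of 9 retinal pigment epithelium markers 6 were tested, with sums of 5.2 to 8.4 CPM over both groups. The part of these cell type levels in the values of the IFT genes was not tested. Among replicates at 5 mM the rod sum was lowest in replicate 1, the replicate that was highest for 20 of the 33 IFT genes.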

How the data were processed

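Gene symbols were assigned to Ensembl identifiers with the GENCODE M21 annotation of GRCm38, the build named in the submitters' processing notes. Per the labels, 4 ng of total RNA went into stranded libraries with 13 PCR cycles, read as pairs of 101 bases. The authors deposited estimated counts (expected counts) per gene and per transcript, without normalization between libraries. The aligner, counter and use of strand are not given in the sources used here, nor is what separates technical replicates. Gene values and sums of transcript values had a ratio that differed between genes and between replicates of a gene. In Ift172 it ran from 0.76 to 1.28 over the replicates. What scaling lies behind the gene values is not given in the sources used here. Counts of both technical replicates were summed, rounded, filtered with filterByExpr, normalized by TMM and tested in R 4.3.3 with edgeR 4.0.16 (quasi-likelihood), without a replicate block. DESeq2 1.42.0 was an alternative. The SE is the absolute log2 fold change over the root of F. The procedure was tested on simulated data. Amplified reads are not independent molecules, so depth limits counting error only. Tables and plots used pandas 2.3.3, matplotlib 3.10.9 and scipy 1.17.1 under Python 3.11.15. Of the table columns, 0 were left unused. Samples of CUT&Tag or 2-DG treatment were left aside.

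The members and lists were chosen with earlier results of these data known. Values in all replicates are given for members under an FDR of 0.05, for the 2 members of lowest p in each complex, for those opposite in sign to their complex, and for Ttc30a1 and Ttc30b. Of other lists, genes under an FDR of 0.05 are named, up to 4, or else the 2 of lowest p; lists of cell type markers with no called gene are given by counts. Alternatives were other scalings, tools and filters, a replicate block, single batches, terms for GC content and length, and each replicate left out. Added after seeing the data were sums of transcript values as gene counts, and fits without the libraries that stood apart.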

Additional observations from a re-analysis of the deposited data

Results flagged for a closer look

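In each concentration the 6 libraries of every member were examined for a highest or lowest CPM whose gap to the nearest library exceeded 0.625 of the whole range. Of 66 such groups 7 were flagged, where 1 in 20, or 3.3, would be flagged if all values were independent. The libraries are pairs of technical replicates and the genes share them, so 3.3 is not a chance level for these data.

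The second library of 5 mM replicate 1 was the highest of its group in 5 of these. It gave 143 CPM for Mak, next to 66.4 CPM in the nearest library, and 93.1 CPM for Ift81, next to 57.1 CPM. It gave 21.7 CPM for Ttc30b (nearest 13.5 CPM), 117 CPM for Kif3a (nearest 85.8 CPM) and 119 CPM for Kif3b (nearest 103 CPM). Without this library the log2 fold change of Mak was 3.24 and that of Wdr60 1.24, with FDRs of 0.00787 and 0.0215 by edgeR, and Ift81 was called as well.

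In 25 mM replicate 2 the second library was lowest for Wdr34, at 2.81 CPM with the nearest at 6.11 CPM, and the first was lowest for Tulp3, at 43.1 CPM with the nearest at 67.9 CPM.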

How the results depend on the processing

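The 2 members called higher, Mak and Wdr60, were 4 with DESeq2, 4 with batch 1 alone and 0 with batch 2 alone. They were 4 with the correction for GC content and length. With that correction and a replicate block together they were 8, beside 1306 of 20307 genes higher. With 1 replicate left out the count ranged from 0 to 13: it was 0 without 5 mM replicate 2 or 3 or without 25 mM replicate 1 or 2, 2 without 25 mM replicate 3 and 13 without 5 mM replicate 1. It was 5 without the second libraries of 5 mM replicate 1 and 25 mM replicate 3. No alternative called a member lower. The count under the stricter rule was 0 as reported, 2 with DESeq2, 1 without a filter and 1 with batch 1 alone. It was 1 with the correction for GC content and length, with or without the replicate block, and 0 to 1 with a replicate left out. It was 1 without the second library of 5 mM replicate 1, and 2 without both second libraries. Over all genes this rule called 0 higher as reported, 627 with DESeq2, 182 without a filter and 137 with batch 1 alone. With the correction it called 76 higher, and with the block as well 269. It called 0 to 76 higher with a replicate left out, 55 without the second library of 5 mM replicate 1 and 317 without both. The median log2 fold change of the members stayed above 0 in all 19 alternatives, from 0.21 to 0.48, and was 0.21 with the correction and the replicate block. With transcript sums as gene counts this median was 0.25, and 25 members were above 0 where 27 were as reported. The log2 fold change of Mak ranged from 2.30 to 3.72 and that of Wdr60 from 0.94 to 1.45, with FDRs over 0.05 in 5 of 19 alternatives each. Ift43 (0.0084) and Ift20 (0.023) turned above 0 with batch 1 alone, and Kif3a turned below 0 with batch 2 alone (-0.14), with the correction (-0.0019) and with the correction and block (-0.0023). Other members of small log2 fold change turned below 0 too, Traf3ip1, Kif17 and Wdr34 with batch 2 alone, Hspb11 and Kifap3 with the correction, with or without the block, and Ift52 with the correction alone. With a replicate left out 1 to 3 members changed sign, and 2 did with transcript sums as gene counts, none of them called. The cause was not tested for any of these.

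The 417 genes called over all genes were 3489 with DESeq2, 1979 without a filter, 990 with the replicate block, 3279 with batch 1 alone, 0 with batch 2 alone, 2846 and 3267 with the correction without and with the block, 1731 without the second library of 5 mM replicate 1, 3941 without both second libraries, and 0 to 5845 with a replicate left out. Transcripts of members called were 13 with DESeq2, 1 without both second libraries and 0 otherwise, where DESeq2 called 4714 of all transcripts and edgeR 23 without both libraries. With the replicate block the members called remained Mak and Wdr60, and the call of the related kinase Mok was lost. Deviations of same-numbered replicates from their group means had correlations over 21061 genes of -0.01, -0.45 and 0.28. With 3 replicates a group these deviations are tied to each other. The correlations therefore cannot show whether same-numbered samples were handled as pairs, which the labels do not say. With 3 replicates a group and 1 dispersion trend for all genes, the 7 members within 0.1 of the members' median of 0.35 had SEs of 0.19 to 0.28, and none of them was called by edgeR.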
